A study of Mus musculus with 2 samples.

Results

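Resident macrophages of the mouse aorta that held at most 1 of 4 inflammatory genes were described here in 2 single-cell RNA libraries. The name low inflammatory, used below, refers to this count of genes and not to their level. Members were chosen by the measured counts of 22 genes in each barcode, where a gene was held with at least 1 unique molecular identifier (UMI, one counted RNA molecule). Members held at least 3 of 5 macrophage core genes (C1qa, C1qb, C1qc, Csf1r and Cd68) and at least 3 of 5 resident genes (Cd163, Folr2, F13a1, Cbr2 and Lyve1). They held at most 1 of 4 inflammatory genes (Ccl3, Ccl4, Cxcl2 and Nlrp3), at most 1 UMI of Arg1, at most 1 of 5 cycling genes (Mki67, Top2a, Birc5, Cdk1 and Ube2c), and no Cd79a or Cd3e. Every one of these genes was therefore a choice and not a finding, and their values are given as a description. Of 19897 barcodes that held 500 genes or more and had a mitochondrial share of 10% or less, 1029 were members: 671 in the library labelled Cept1 and 358 in the control library.

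The series asked what a change of Cept1 in endothelial cells does to the cells of the aortic wall. The enzyme Cept1 joins the choline or ethanolamine head group to the lipid backbone, which completes phosphatidylcholine and phosphatidylethanolamine. Both libraries came from male C57BL6 mice carrying Cept1fl/fl. The mice of the Cept1 library also carried VE-cadherin-Cre-ERT2 (Cre+), a tamoxifen-dependent Cre recombinase driven by an endothelial promoter, and the labels describe this library as Cept1 overexpression restricted to the endothelium. How a Cept1fl/fl genotype with Cre gives overexpression is not settled by the sources used here. The control library came from Cre- mice that were floxed too. Mice were littermates, were given 5 daily injections of 1 mg tamoxifen from at least 8 weeks of age and rested for 5 days, while the age label reads 6 to 8 weeks. The thoracic and abdominal aorta, 3 mice per condition, was minced, digested for 1 h at 37 °C, treated to lyse red blood cells and sorted. How the mice were pooled and which gate was used were not given, and each condition is 1 library, so no difference between the conditions was tested and no p-value is given. Intervals on values below are 95% intervals for counting error only and do not include the spread between mice.

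Macrophages are phagocytes that most tissues hold from early life onward. In the arterial wall the resident cells lie mainly in the adventitia, take up haemoglobin complexes through CD163, folate through the folate receptor FOLR2 and glycosylated proteins through the mannose receptor MRC1, and depend on the CSF1 receptor. Many of them also carry the hyaluronan receptor LYVE1. They share the vessel wall with MHC class II-rich macrophages and with macrophages derived from blood monocytes, which use the chemokine receptor CCR2 to enter the tissue.

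The matrices held 17728 barcodes and 95735360 UMIs in the Cept1 library and 14349 barcodes and 88220524 UMIs in the control library. After the filter, 11168 and 8729 barcodes were kept. Of the barcode sequences, 74 occurred in both matrices; 5 member barcodes occurred in the other matrix, and 0 were members in both. Members had a median of 7076 UMIs and 2750 genes in the Cept1 library and of 7458 UMIs and 2850 genes in the control library, with median mitochondrial shares of 4.29% and 3.92%. Their summed depth was 5105037 and 2948475 UMIs, so the control side of every ratio is the less precise one. Levels below are summed UMIs per 1000000 UMIs of the members, written as CPM, and a log2 ratio divides the level in the Cept1 library by that in the control library.

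Members made up 6.01% of the kept barcodes in the Cept1 library (671 of 11168, exact binomial interval 5.57% to 6.47%) and 4.10% in the control library (358 of 8729, 3.69% to 4.54%). Macrophage barcodes as a whole, those with at least 3 core genes, were 19.2% (2145) and 12.3% (1075) of the kept barcodes. Among macrophage barcodes the member share was 31.3% (29.3% to 33.3%) in the Cept1 library and 33.3% (30.5% to 36.2%) in the control library, and these intervals overlap. At least 3 resident genes were held by 82.1% (80.4% to 83.7%) and 76.6% (73.9% to 79.1%) of the macrophage barcodes, and of those 38.1% (35.8% to 40.4%) and 43.5% (40.1% to 47.0%) were members. Both shares depend on the digestion and on the sort, whose part was not tested.

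Most members held all 5 resident genes of the rule, of which at least 3 were required. Among the 1760 Cept1 and 823 control macrophage barcodes with at least 3 resident genes, all 5 were found in 1179 and 549. The counts below are for members. All 5 resident genes were found in 432 Cept1 and 207 control members, 4 in 172 and 102, and 3 in 67 and 49. No inflammatory gene was found in 270 and 170 members, and 1 was found in 401 and 188. A further 200 and 106 barcodes met the gene rule but lay outside the filter, nearly all of them (200 and 104) with over 10% mitochondrial UMIs. Barcodes just outside the resident threshold looked different from those just inside it: with exactly 3 resident genes the level of Mrc1, which the rule did not use and which is given in UMIs per 1000000 (CPM), was 2129 CPM in 67 Cept1 and 1674 in 49 control barcodes, and with exactly 2 it was 593 in 54 and 628 in 42. The platelet factor gene Pf4 was at 1269 and 1457 inside and at 541 and 512 outside. Across the inflammatory threshold Mrc1 differed less: barcodes with exactly 1 inflammatory gene had it at 3745 and 3074 CPM, and those with exactly 2 at 3749 and 3458. Other genes moved there. Ccl8 was at 1359 and 422 CPM inside and at 1856 and 308 outside, so it did not move alike in the libraries. Il1b was at 7.995 and 47.4 inside and at 46.8 and 35.2 outside. A single control member held most of the Il1b UMIs of the control members, so its control level inside is not read as a difference.

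The label was checked against 6 markers, Folr2, Cd163, F13a1, Cbr2, Mrc1 and Ccl8, of which the rule used the first 4, so only Mrc1 and Ccl8 bear on the label apart from the choice. The summed level of all 6, which the rule itself raised, was 12157 CPM in Cept1 members and 11053 in control members. It is a description and no check of the label. In macrophage barcodes with at least 3 resident and at least 2 inflammatory genes the sum was 11242 and 9951. In 184 Cept1 and 120 control macrophage barcodes that held fewer than 3 resident genes and few inflammatory ones, the sum was 834 and 989, and in barcodes that were not macrophages it was 106 in both libraries. Mrc1 was found in 98.8% and 97.5% of members and stood at 3496 and 3052 CPM, against 22.8 and 17.7 outside the macrophages. Lyve1 stood at 939 and 946 CPM in members, and at 153 and 66.7 outside the macrophages, where lymphatic endothelial cells also carry it.

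**Figure D1:**
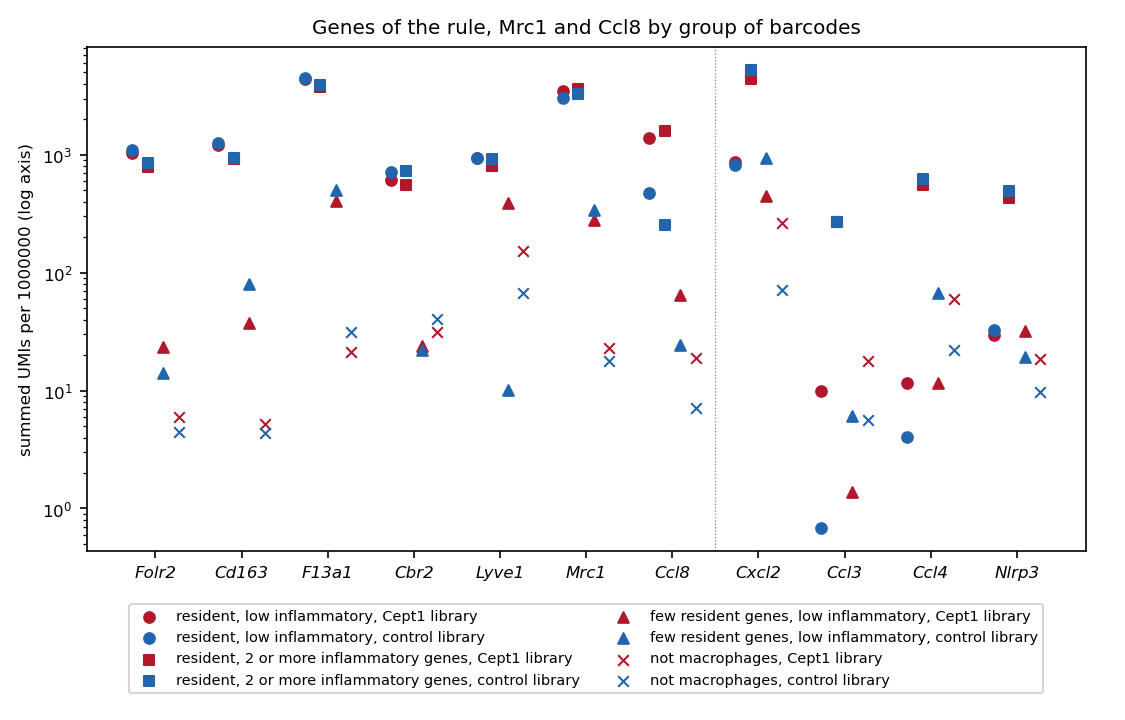
Summed UMIs per 1000000 (log axis) of the 5 resident genes, Mrc1, Ccl8 and, right of the dotted line, the 4 inflammatory genes, in 4 groups of barcodes (marker shapes) of the Cept1 library (red) and the control library (blue). Mrc1 sits at 3496 and 3052 in the resident, low inflammatory macrophages and at 22.8 and 17.7 in barcodes that are not macrophages, while Ccl8 is the only gene left of the line whose red and blue circles stand clearly apart.

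The resident genes of the rule, Cxcl2 and Nlrp3 had nearly the same level in members of both libraries, and Ccl3 and Ccl4 did not. Folr2 was at 1032 and 1101 CPM (log2 ratio -0.09), Cd163 at 1210 and 1269 (-0.07), and F13a1, the A subunit of coagulation factor XIII, at 4409 and 4444 (-0.01). Cbr2, a carbonyl reductase, was at 613 and 709 (-0.21). Cxcl2, a neutrophil-attracting chemokine, stood at 868 and 820 CPM, against 4428 and 5251 in the 1004 Cept1 and 419 control barcodes with the resident genes and at least 2 inflammatory genes. Nlrp3, the inflammasome sensor, was at 29.6 and 32.9 in members against 433 and 496 there. Ccl3 was at 9.99 and 0.678 and Ccl4 at 11.6 and 4.07 in members, resting on 51, 2, 59 and 12 UMIs.

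Some genes with no part in the rule stood higher in members than in macrophage barcodes with fewer than 3 resident genes. By the smaller of the 2 libraries' ratios, the 12 genes that stood highest over those barcodes were C6, Tfec, Cd209f, Cd209b, Cd209d, Vsig4, Cd209g, Npl, Ccl8, Siglec1, Fcna and Clec10a. These 2 groups were cut by resident genes measured in the same cells, so the differences are a description and no test. The barcodes with few resident genes also held less macrophage RNA and more RNA of other cells. Their macrophage markers summed to 2344 and 2073 CPM, against 11852 and 11869 in members. Their fibroblast markers summed to 26161 and 16430, against 4903 and 6305. The part of this mixture in the differences was not tested. The C-type lectins of the Cd209 cluster bind carbohydrates of microbes and host glycoproteins, and Cd209f was at 364 and 474 CPM in members against 14.4 and 11.1. Clec10a, a galactose-type lectin, was at 565 and 491 against 52.1 and 40.5. Siglec1, the sialic acid-binding sialoadhesin, was at 61.9 and 51.9 against 3.43 and 4.05. Vsig4, a receptor for complement C3 fragments, was at 35.5 and 39.7 CPM against 0 and 2.02, and Fcna, the lectin pathway protein ficolin A, at 329 and 255 against 18.5 and 21.2. Each of these stood far higher in members than in barcodes with few resident genes, in both libraries. Their levels in resident barcodes with at least 2 inflammatory genes, which share the resident genes, are not given here. They are therefore not called particular to the members. The Cd209 genes are paralogs, and reads may be split between them.

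The 6 genes that stood lowest by the same comparison were Igfbp5, Akap12, Sfrp2, Bmp6, Gpc3 and Efna5. Igfbp5, an IGF-binding protein, was at 184 and 134 CPM in members against 2227 and 2158 in barcodes with few resident genes, and the Wnt antagonist Sfrp2 was at 106 and 148 against 758 and 1029. These are genes that fibroblasts and other wall cells express strongly: Sfrp2 stood at 921 and 912 in barcodes that were not macrophages. Members carried less of both genes than the barcodes with few resident genes did.

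Members were not uniform. They were clustered with both libraries together, and 8 clusters were found; because the same genes set the clusters, their leading genes are a description. Cluster 1 (245 Cept1 and 116 control members, 36.5% and 32.4%) was led by Cxcl2, Tnfaip3, an inhibitor of NF-kB signalling, and Egr1, an immediate early transcription factor. It held 3623 and 1960 UMIs of Cxcl2, against 88 and 23 in cluster 2, so its members were not low in this inflammatory gene. Cluster 2 (162 and 97, 24.1% and 27.1%) was led by Ccr2 and by Ciita and H2-Eb1, genes of MHC class II presentation. Cluster 3 (145 and 59, 21.6% and 16.5%) was led by Vsig4 and had little MHC class II: H2-Aa stood at 108 and 99.3 CPM there, against 3581 and 4056 in cluster 1 and 5159 and 5339 in cluster 2. Clusters 4, 5 and 6 (63 and 51, 25 and 8, 15 and 10 members) were led by genes of fibroblasts, smooth muscle and endothelium. Cluster 8 held 0 Cept1 and 10 control members, led by Mmrn1, Ccl21a and Col1a1, genes of lymphatic endothelium and fibroblasts, and cluster 7 held 16 and 7.

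MHC class II varied widely among members. The sum of H2-Aa, H2-Ab1, H2-Eb1 and Cd74 per member was 128 and 59.3 CPM at percentile 10, 6813 and 8309 at the median, and 35887 and 37181 at percentile 90. After every member was reduced to 3000 UMIs, leaving 608 Cept1 and 281 control members, H2-Aa was found in 71.9% and 71.5%. The libraries were alike in this share. In barcodes that were not macrophages it was 14.9% and 20.5%, at median depths of 5822 and 6326.5 UMIs before the reduction.

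Lyve1 was found in 583 Cept1 and 285 control members and was missing in 88 and 73. Members without Lyve1 had more H2-Aa (4902 and 4459 CPM against 2666 and 2953) and more Ccr2 (285 and 86.0 against 60.9 and 49.9). They had less of Timd4, a phosphatidylserine receptor of long-lived resident macrophages, at 47.9 and 31.3 against 161 and 178. Folr2 was lower as well, at 475 and 535 against 1098 and 1185, as was F13a1, at 2266 and 2198 against 4664 and 4779. Both libraries gave the same order for each of these genes. In the control library members without Lyve1 were shallower, with a median of 3306 UMIs against 8431, and a missing gene and a shallow barcode were not told apart.

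At 3000 UMIs Timd4 was found in 31.3% of Cept1 and 31.0% of control members, against 0.372% and 0.324% of barcodes that were not macrophages. Ccr2 was found in 6.58% and 7.47% of members, and Cd209f in 29.3% and 32.7%. Each pair of intervals overlapped. These shares give no difference between the libraries in the Timd4, Ccr2 or Cd209f fraction of the members that exceeds counting error.

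Before the comparison of conditions, the allele was read in the members. Cept1 (chr3:106502260-106547802, minus strand, mm10) had 720 UMIs in Cept1 members and 333 in control members, or 141 and 113 CPM, a log2 ratio of 0.32 (0.13 to 0.51). In barcodes that were not macrophages the ratio was 0.35, on levels of 64.5 and 50.5. The ratio in the members, which are not endothelial, was thus close to that in the rest of the wall, and it ranged from 0.08 to 0.51 over 17 settings. Dram2 and Dennd2d lie across the gene on the opposite strand, and a 3' count does not tell an introduced transcript from the native one. Gt(ROSA)26Sor, a non-coding RNA made at Rosa26, had 29 and 91 UMIs, 5.68 and 30.9 CPM, a log2 ratio of -2.44 (-3.10 to -1.82). It was at 1.28 and 22.3 CPM outside the macrophages, a ratio of -4.13. Vegfa, a growth factor for endothelium, had 29 and 9 UMIs in members, and the fatty acid-sensing receptor gene Ppara had 11 and 5, so neither can be compared at this depth.

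Few genes differed by at least 2-fold between the members of the 2 libraries. Of 6026 genes with at least 200 UMIs over both libraries, 9 were at least 2-fold higher in the Cept1 members with an interval above 0 (0.149%), and 20 were at least 2-fold lower (0.332%). The 9 higher genes were Rsad2, Ifit1, Gdf15, Ccl8, Myocd, Nxpe5, Cd55, C6 and Mctp2. The 20 lower genes were Gm47283, Flt1, Lyz1, Igfbp6, Gm19951, Aspn, Sost, Serpine2, Sfrp1, Rgs5, Fn1, Bmp4, Col1a1, Mmrn1, Tinagl1, Postn, Dbp, Col6a3, Kdr and Adgrf5. Gm47283 had the largest difference of them (17 and 232 UMIs, log2 ratio -4.56). It was at 1.48 and 55.1 CPM outside the macrophages, so its difference was not restricted to the members. Of these lower genes, 14 stood in members at less than 0.5 of their level in barcodes that were not macrophages, as did 1 of the higher genes, Cd55. Over the 10077 genes with at least 50 UMIs the median log2 ratio was -0.01, with 4912 above 0 and 5165 below. For 10.1% the interval lay above 0 and for 11.3% below. Intervals narrow as UMIs rise, and these shares were not matched to the depth of the gene lists below.

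**Figure D2:**
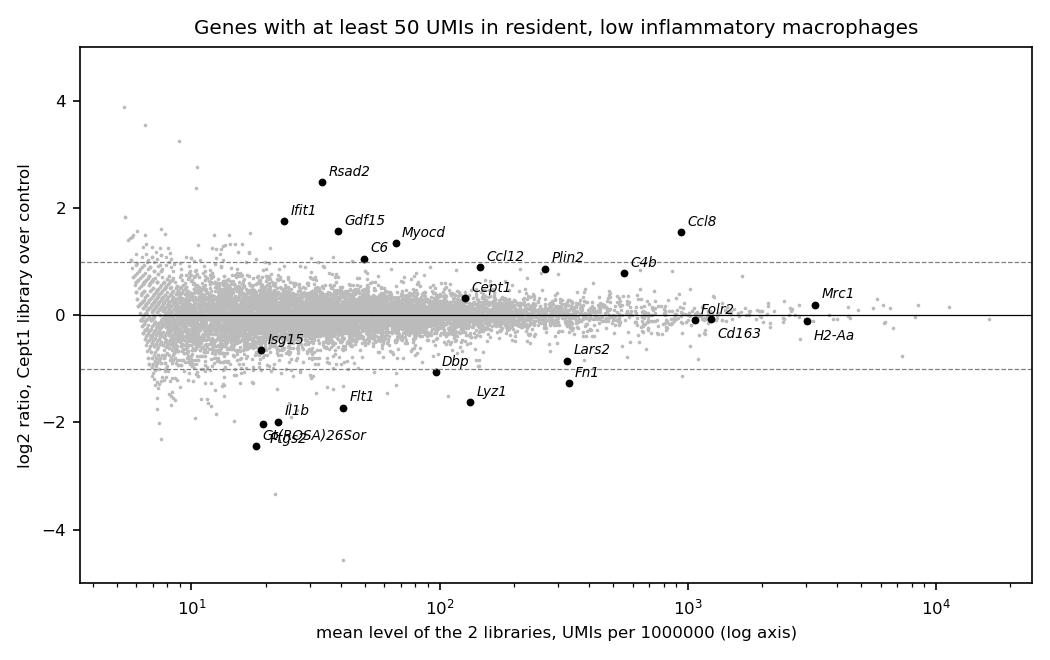
Each point is a gene with at least 50 UMIs in the members of both libraries together, placed by its mean level (UMIs per 1000000, log axis) and its log2 ratio between the Cept1 and control libraries. Black points are named genes and dashed lines mark a 2-fold difference; Ccl8 lies above the upper dashed line at 1.55, while Folr2, Cd163 and H2-Aa lie close to 0.

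Ccl8 had the most UMIs of the 9 higher genes. Ccl8 (chr11:82115185-82116799, plus strand) encodes a chemokine that attracts monocytes and lymphocytes and is a marker of resident macrophages. It was at 1398 CPM in Cept1 members (7139 UMIs) and at 479 in control members (1411 UMIs), a log2 ratio of 1.55 (1.46 to 1.63), or 2.92-fold. The order of the libraries was the same in every group examined. Resident barcodes with at least 2 inflammatory genes had 1586 and 253 CPM (2.65), barcodes with few resident genes 64.5 and 24.3 (1.41), and barcodes that were not macrophages 18.99 and 7.09 (1.42). The part of RNA from other macrophage barcodes in the low levels of the latter groups was not tested, so these are no separate check.

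The difference in Ccl8 was seen both in how many members held the transcript and in how much the richest held. At least 1 UMI was found in 61.3% of Cept1 and 43.0% of control members, and at 3000 UMIs in 49.8% (45.8% to 53.9%) and 31.3% (25.9% to 37.1%). In barcodes that were not macrophages the share at 3000 UMIs was 5.92% and 1.73%. Members with at least 50 UMIs of Ccl8 were 5.81% and 1.12%. The median member held 1 and 0 UMIs, the richest 312 and 172. The top 5% of members, 34 and 18 barcodes, held 51.1% and 57.8% of all Ccl8 UMIs, so the level of this gene is carried by a minority in both libraries. Without the member with the most Ccl8 UMIs in each library the ratio was 1.67.

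Each of the larger clusters showed the same order. In cluster 1 Ccl8 was at 1913 and 544 CPM (log2 ratio 1.82), in the Ccr2-led and MHC class II-led cluster 2 at 1599 and 895 (0.84), and in the Vsig4-led cluster 3 at 725 and 311 (1.22). In the fibroblast-marked cluster 4 it was at 1091 and 78.7 (3.79). Over 17 settings of the filter, the rule and the weights the ratio stayed between 1.33 and 2.19.

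**Figure D3:**
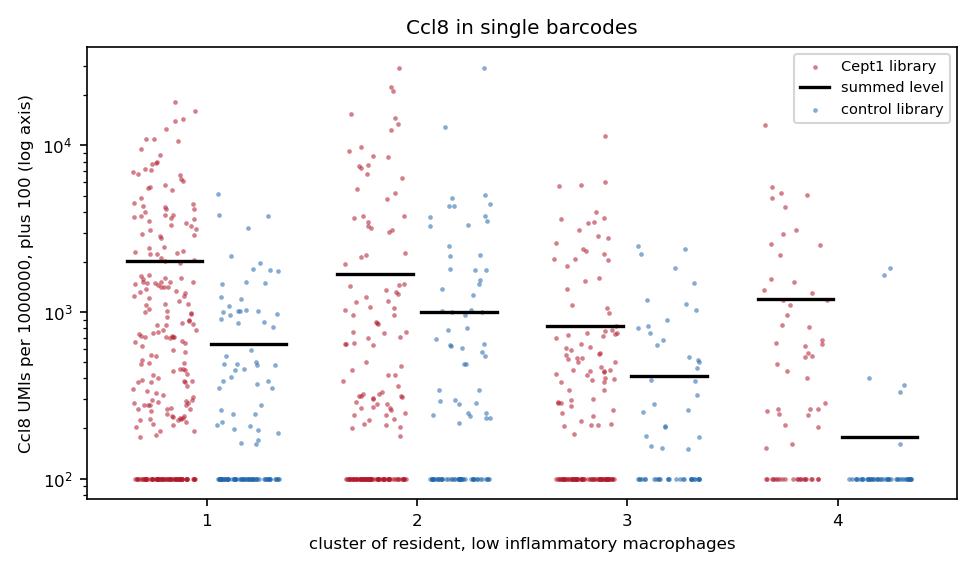
Share of Ccl8 among the UMIs of each barcode, per 1000000 and offset by 100 so that members without the transcript can be drawn on a log axis, in each member of clusters 1 to 4 of the Cept1 library (red) and the control library (blue). The black bars are the summed level of each set; the red bar is the higher one in each of the 4 clusters, and most of the level comes from the members at the top.

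Other chemokines of the monocyte-attracting family stood higher in Cept1 members by less. Ccl12 was at 190 and 102 CPM (972 and 301 UMIs; log2 ratio 0.90), Ccl7 at 501 and 331 (0.60), Ccl2 at 494 and 389 (0.35), Ccl6 at 1428 and 1110 (0.36) and Ccl9 at 747 and 621 (0.27). The chemokine receptors Ccr1 and Ccr2 were at 94.2 and 59.4 (0.67) and at 84.8 and 54.6 (0.64). Ccl2 and Ccl7 did not hold this order in all settings, with ranges of -0.40 to 0.54 and -0.12 to 0.71, and Ccr2 ranged from -0.29 to 0.97. Ccl12 and Ccl6 stayed above 0, between 0.26 and 1.08 and between 0.21 and 0.66. In resident barcodes with at least 2 inflammatory genes Ccl2 was lower in Cept1 barcodes, at 1366 against 1957 (-0.52), and Ccl7 was at 1246 and 1349 (-0.11). Ccl12 in cluster 2 differed most, with 275 and 24 UMIs (2.73), and in cluster 3 its ratio was -0.18.

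As a list, the 29 measured inflammatory cytokines and chemokines had no common direction: 14 were higher and 15 lower in Cept1 members, the interval lay above 0 for 13 and below for 8 (10.1% and 11.3% of all genes), and the median was -0.01, equal to that of all genes. The choice of members removed barcodes that held 2 or more of Ccl3, Ccl4, Cxcl2 and Nlrp3, so the list is cut by the rule itself. Without these 4 genes 11 were higher, and the interval lay above 0 for 10 and below for 8. Tnf was at 58.8 and 66.8 CPM (-0.19) and the anti-inflammatory cytokine gene Il10 at 41.3 and 50.9 (-0.30, interval including 0). Il1b was at 9.01 and 35.6 (-1.98) and Ptgs2, the inducible cyclooxygenase, at 7.64 and 31.2 (-2.03). A single control member held 55.2% of the Il1b UMIs and a single one 55.4% of the Ptgs2 UMIs; without the richest member of each library the ratios were -1.18 and -1.02. In members free of other cells' genes they were -1.004 and 1.35, both with intervals that include 0.

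Interferon response genes were the list with the highest median. Of 32 measured genes that type I interferon is known to induce, 28 were higher in Cept1 members and 4 lower; the interval lay above 0 for 20 and below for 3, against 10.1% and 11.3% of all genes. The median log2 ratio was 0.35, and -0.01 over all genes. The same list had a median of 0.35 in resident barcodes with at least 2 inflammatory genes, of 0.04 in barcodes with few resident genes and of 0.32 in barcodes that were not macrophages, so a positive median was not restricted to the members. It ranged from 0.21 to 0.56 over 16 settings.

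Rsad2 (viperin, an antiviral enzyme; chr12:26442746-26456452) had the highest ratio among genes with at least 200 UMIs, at 57.0 and 10.2 CPM, or 2.49 (1.94 to 3.08). It rested on 291 and 30 UMIs, of which 1 member in each library held 24.4% and 30%, and the ratio without those members was 2.58. At 3000 UMIs it was found in 7.07% of Cept1 and 1.07% of control members, and in 2.99% and 2.58% of barcodes that were not macrophages. The interval of the control members, 0.221% to 3.09% on 3 of 281, contains the wall's share, while the share in Cept1 members lay above that of their wall (2.60% to 3.43%). Rsad2 was high in clusters 1 and 2 (176 and 8, and 63 and 6 UMIs) and not in the Vsig4-led cluster 3 (10 and 5 UMIs, log2 ratio -0.07). Over the settings its ratio ranged from 1.47 to 4.12.

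Ifit1 (chr19:34640871-34650009), an RNA-binding effector, was at 36.4 and 10.9 CPM (1.75; range 1.42 to 2.44), and 1.01 was its ratio outside the macrophages. Its relatives Ifit2 and Ifit3 were at 21.4 and 8.48 (1.33) and at 29.2 and 12.2 (1.26). Usp18, which dampens interferon receptor signalling, was at 18.2 and 6.44 (1.50), and the RNA-sensing oligoadenylate synthetase genes Oas1a and Oasl2 at 23.7 and 10.5 (1.17) and at 82.5 and 45.4 (0.86). Among the transcription factors, Irf7 was at 37.4 and 20.01 (0.90; range 0.63 to 1.08) and Irf9 at 54.1 and 45.1 (0.26, interval including 0). Irf7 kept its sign in each of clusters 1 to 4, at 1.02, 1.02, 1.21 and 0.55. Ifit2 had a ratio of 0.06 among members with no inflammatory gene.

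Not every gene of the list followed. Isg15, a ubiquitin-like modifier that interferon induces strongly, was lower in Cept1 members, at 14.9 and 23.4 CPM (76 and 69 UMIs; -0.65, range -1.24 to -0.41). It was lower outside the macrophages too (-0.60). The chemokine gene Cxcl10 was at 15.5 and 22.0 (-0.51; range -2.14 to 0.05) and Irf1, a factor that interferon gamma also induces, at 178 and 207 (-0.22). By cluster Isg15 had 42 and 18 UMIs in cluster 1 (0.46), 25 and 17 in cluster 2 (-0.23) and 2 and 13 in cluster 3 (-3.77), and the intervals in clusters 1 and 2 include 0. Counted per member at 3000 UMIs, at least 8 genes of the list were found in 30.8% of Cept1 members (27.1% to 34.6%) and in 22.4% of control members (17.7% to 27.7%).

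**Figure D4:**
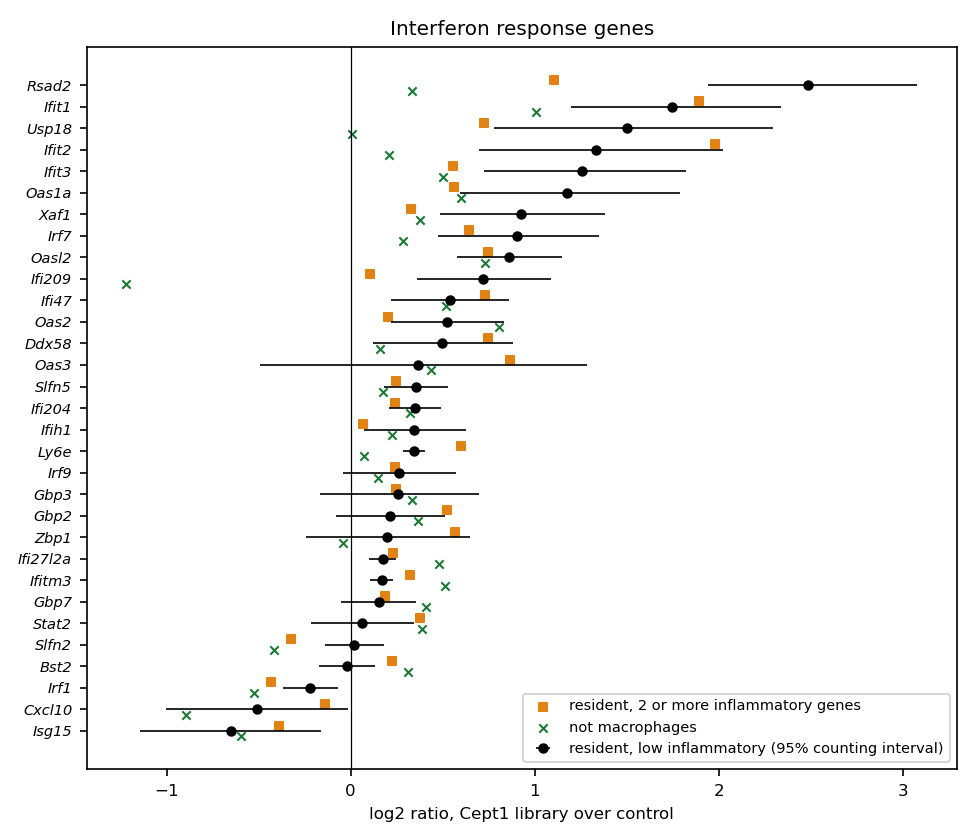
Log2 ratio between the Cept1 and control libraries for 31 of the 32 measured interferon response genes, in the resident, low inflammatory macrophages (black, with 95% counting intervals), in resident barcodes with at least 2 inflammatory genes (orange squares) and in barcodes that are not macrophages (green crosses). Rsad2 is at 2.49 and Ifit1 at 1.75 in the members, and Isg15, Cxcl10 and Irf1 lie below 0 in all 3 groups.

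The promoters of the extreme members of the list, and of Ccl8, are shown because these genes differed in size and direction between the libraries. The windows are the 250 bases before the RefSeq start on GRCm38.p6, read on the gene's strand, and capitals mark matches to GAAANNGAA or its reverse complement TTCNNTTTC, a core of the interferon-stimulated response element, searched on both strands with overlaps allowed. Rsad2 (chr12:26456453-26456702, minus strand) has 1 match, Ifit1 (chr19:34640639-34640888, plus strand) 3, Isg15 (chr4:156200819-156201068, minus strand) 3, and Ccl8 (chr11:82114935-82115184, plus strand) 0.
Rsad2: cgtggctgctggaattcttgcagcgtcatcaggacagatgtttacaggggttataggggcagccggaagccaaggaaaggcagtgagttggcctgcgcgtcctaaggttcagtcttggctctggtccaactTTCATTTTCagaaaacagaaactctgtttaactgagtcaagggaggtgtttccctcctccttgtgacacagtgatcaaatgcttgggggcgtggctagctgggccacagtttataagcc
Ifit1: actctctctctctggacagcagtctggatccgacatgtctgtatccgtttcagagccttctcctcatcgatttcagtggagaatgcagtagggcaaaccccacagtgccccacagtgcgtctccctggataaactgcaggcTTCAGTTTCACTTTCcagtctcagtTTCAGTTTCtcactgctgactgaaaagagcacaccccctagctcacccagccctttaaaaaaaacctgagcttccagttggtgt
Isg15: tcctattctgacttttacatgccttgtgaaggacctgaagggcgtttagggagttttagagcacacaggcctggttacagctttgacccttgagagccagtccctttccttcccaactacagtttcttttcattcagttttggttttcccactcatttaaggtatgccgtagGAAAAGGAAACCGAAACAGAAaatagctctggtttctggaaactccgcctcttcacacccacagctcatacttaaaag
Ccl8: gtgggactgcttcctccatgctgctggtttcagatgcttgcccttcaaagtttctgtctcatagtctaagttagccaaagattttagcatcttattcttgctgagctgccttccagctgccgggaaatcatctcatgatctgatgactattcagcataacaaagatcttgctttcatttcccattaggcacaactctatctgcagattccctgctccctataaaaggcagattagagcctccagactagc

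The motif did not follow the direction of the ratios. Isg15, the lowest gene of the list, has as many matches as Ifit1. Of the 25 list genes with a window, 14 have a match, against 608 of 8034 genes with at least 50 UMIs (7.57%) and 2211 of 27025 gene symbols (8.18%). The 14 genes with a match had a median log2 ratio of 0.30, with 11 above 0, and the 11 without one had a median of 0.54, with 10 above 0. The absence of a match in the Ccl8 window says only that these letters are not in it.

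Some complement genes stood higher in Cept1 members. Resident macrophages are a source of C1q and of several other components. Of 19 measured complement genes and opsonins 12 stood higher and 7 lower in Cept1 members, and the median was 0.06 (0.11 without the C1q genes of the rule). The interval lay above 0 for 8 and below for 1, or for 8 and 0 without those genes, against 10.1% and 11.3% of all genes. C4b (chr17:34728380-34743882) was at 703 and 407 CPM, a log2 ratio of 0.79 (0.70 to 0.89) on 3590 and 1199 UMIs. Its ratio stayed between 0.66 and 0.90 over the settings and was 0.76, 0.68, 0.60 and 0.85 in clusters 1 to 4. The gene stood at 165 and 88.4 (0.90) in the pooled barcodes outside the macrophages, so a higher level was not restricted to the members. C4b was not split by wall cell type there. Cfb, of the alternative pathway, was at 97.7 and 65.1 (0.59), and C5ar1, the C5a receptor, at 543 and 420 (0.37; range 0.11 to 0.44). C6, a component of the membrane attack complex, was at 67.0 and 32.2 (1.06; range 0.84 to 1.38) and had 0 UMIs in barcodes with few resident genes of either library. C3 had a ratio of 0.37 that ranged from -0.68 to 1.12.

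Of the 23 lipid genes, Plin2 was among those that stood higher in Cept1 members in each setting. Plin2 coats cytoplasmic lipid droplets and is a marker of lipid loading. It was at 345 and 189 CPM (1761 and 558 UMIs), a log2 ratio of 0.87 (0.73 to 1.01), which ranged from 0.73 to 0.99 over the settings and was 1.02, 0.73, 0.61 and 1.26 in clusters 1 to 4. At 3000 UMIs it was found in 55.6% and 35.6% of members, and in 10.3% and 8.77% of barcodes that were not macrophages. Resident barcodes with at least 2 inflammatory genes had 449 and 257 (0.81). The cholesterol exporters Abca1 and Abcg1 were at 439 and 324 (0.44; range 0.26 to 0.52) and at 14.5 and 7.12 (1.03, on 74 and 21 UMIs). Apoe was at 11882 and 10753 (0.14) and the fatty acid and oxidised lipoprotein receptor Cd36 at 1042 and 888 (0.23).

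The lipid list as a whole had no common direction, with 13 genes higher, 10 lower and a median of 0.04; the interval lay above 0 for 7 and below for 9, against 10.1% and 11.3% of all genes. Mgll, a monoacylglycerol lipase, was at 29.2 and 53.2 (-0.87), and Fabp5, a fatty acid-binding protein, at 12.3 and 31.9 (-1.37). In the control library 1 member held 42.0% of the Mgll and 62.8% of the Fabp5 UMIs, and without the richest members the ratios were -0.41 and -0.35. Receptors of the PPAR, RXR and LXR families, their partners and fatty acid oxidation genes, among whose ligands are phospholipids, were split 18 to 18 with a median of 0.00. The interval lay above 0 for 7 of these genes and below for 5. Cpt1a, which brings fatty acids into mitochondria, was at 110 and 82.1 (0.42; range 0.33 to 0.56), the PPAR target Angptl4 at 23.1 and 14.6 (0.66; range 0.44 to 0.90) and the peroxisomal oxidase gene Acox3 at 30.8 and 20.3 (0.60; range 0.25 to 0.99). Pparg was at 16.7 and 27.8 (-0.74; range -1.45 to 0.89).

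Phospholipid synthesis genes, the pathway of Cept1 itself, gave few genes whose interval did not include 0. Of 34 measured genes 20 were higher and 14 lower, and the median was 0.10. The interval lay above 0 for 4, close to the 10.1% of all genes, and below for 1, against 11.3%. Chka, the choline kinase, was at 182 and 154 CPM (0.25) and Etnk1, an ethanolamine kinase, at 73.3 and 60.7 (0.27). The rate-controlling genes Pcyt1a and Pcyt2 were at 137 and 121 (0.17) and at 16.5 and 16.6 (-0.01). Chpt1 and Selenoi, whose enzymes share the last step with Cept1, were at 41.9 and 37.6 (0.16) and at 14.7 and 17.6 (-0.26). The intervals of Pcyt1a, Pcyt2, Chpt1 and Selenoi include 0.

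The sterol and fatty acid synthesis list stood lower, with 8 genes higher and 15 lower, a median of -0.19, and intervals above 0 for 0 of the 23 and below for 5, against 10.1% and 11.3% of all genes. Nsdhl and Idi1, enzymes of cholesterol synthesis, were at 4.90 and 9.84 (-1.01) and at 6.86 and 13.2 (-0.95), and Stard4, a sterol carrier, at 9.21 and 17.98 (-0.97; range -1.21 to -0.61). These rested on 25 to 53 UMIs per library. Glycolysis and hypoxia genes were lower too, 7 higher and 17 lower, median -0.11, with intervals above 0 for 0 of the 24 and below for 8. Pgam1, a glycolytic mutase, was at 48.2 and 62.7 (-0.38, range -0.46 to -0.12). Both medians stayed below 0 in each setting. Of 42 oxidative phosphorylation genes 33 were lower, by little: the median was -0.06, the lowest ratio was that of the complex I gene Ndufb8 (-0.29), and the interval lay below 0 for 6, close to the 11.3% of all genes. The median of this list was above 0 in 1 setting.

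Among the circadian genes Dbp stood lower in Cept1 members. Dbp (chr7:45705088-45710203), a clock-controlled transcription factor whose RNA cycles over the day, was at 62.3 and 131 CPM (318 and 385 UMIs), a log2 ratio of -1.07 (-1.29 to -0.85). It was lower in each of clusters 1 to 4 (-1.37, -1.01, -1.24 and -0.71) and its range over the settings was -1.34 to -0.86. At 3000 UMIs it was found in 14.3% and 31.7% of members, and in 37.3% and 38.2% of barcodes that were not macrophages, where its summed ratio was -0.24. Tef, a relative of Dbp, was at 42.3 and 55.3 (-0.39), the repressor gene Bhlhe41 at 14.1 and 27.1 (-0.94; range -1.54 to -0.51) and Nr1d1 at 115 and 131 (-0.19). Cry1 was at 25.9 and 17.6 (0.55), Arntl at 37.4 and 30.2 (0.31, interval including 0) and Per1 at 115 and 108 (0.09, interval including 0). The list of 18 was split 10 to 8 with a median of 0.04, with intervals above 0 for 3 and below for 5. The sources used here do not state the hour at which the mice were killed, and its part in these values was not tested. Dbp overlaps Sphk2 on the other strand.

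Genes that define resident macrophages differed in both directions between the libraries, most of them by little. Of 28 measured identity genes the ratio was above 0 for 16 and below for 12, and the median was 0.03; without the 5 genes of the rule 16 were higher with a median of 0.10. The interval lay above 0 for 11 of the 28 and below for 7, against 10.1% and 11.3% of all genes. Without the genes of the rule these counts were 11 and 4. The 28 genes held 147670 and 80029 UMIs, and the shares of all genes are not matched to that depth. The scavenger and efferocytosis list had a median of 0.02 (15 higher, 9 lower), with intervals above 0 for 5 and below for 2. Mertk, an efferocytosis receptor, was at 350 and 345 CPM and its ligand gene Gas6 at 820 and 807. The lysosome list had a median of 0.05 (21 higher, 9 lower), with intervals above 0 for 6 and below for 2. The cathepsin genes Ctsd and Ctsl were at 570 and 500 (0.19) and at 372 and 415 (-0.16), and the protease gene Lgmn at 918 and 751 (0.29). The transcription factor Maf, which maintains macrophage identity, was at 2241 and 1982 (0.18). Fcna was at 329 and 255 (0.37) and Cd209f at 364 and 474 (-0.38; range -0.53 to -0.23).

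Antigen presentation genes had no common direction, with 10 of 19 higher and a median of 0.01. For 5 of them the interval lay above 0 and for 7 below, against 10.1% and 11.3% of all genes. H2-Aa was at 2904 and 3149 (-0.12), H2-Ab1 at 2322 and 2539 (-0.13), H2-Eb1 at 2388 and 2508 (-0.07) and the invariant chain gene Cd74 at 5937 and 6508 (-0.13), each a little lower in Cept1 members. Their regulator Ciita was at 51.7 and 44.1 (0.23, interval including 0). Tap1, which loads MHC class I and is also an interferon target, was at 44.5 and 32.9 (0.43). Iron and haem genes had a median of -0.05 (9 higher, 16 lower), with intervals above 0 for 3 and below for 5. Hmox1, which degrades haem, was at 338 and 421 (-0.32; range -0.58 to -0.18), and Spic, a factor of haem-handling macrophages, at 8.23 and 13.9 (-0.76). The ceruloplasmin gene Cp was at 221 and 160 (0.46). Members carried haemoglobin RNA, 4324 and 2524 CPM over 6 erythroid markers, and its part in the haem genes was not tested beyond leaving such members out.

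Early-response and stress genes bear on the hour of digestion. The immediate early list was split 15 to 14 with a median of 0.02. The interval lay above 0 for 7 of the 29 and below for 11, against 10.1% and 11.3% of all genes. Klf6 was at 1192 and 850 (0.49), Dusp1 at 2681 and 2226 (0.27) and Fos at 3380 and 3020 (0.16), while Gadd45b was at 104 and 185 (-0.83; range -1.48 to -0.65) and Nr4a2 at 28.2 and 43.8 (-0.63). Heat shock chaperones were split 8 to 12 with a median of -0.07, with intervals above 0 for 4 and below for 6. Hspa1b and Hspb1 were at 98.7 and 59.7 (0.73) and at 102 and 58.7 (0.80), with ranges of -0.40 to 0.89 and -0.62 to 1.46. Gdf15, a stress-induced cytokine gene, was at 58.2 and 19.7 (297 and 58 UMIs; 1.56), but its ratio ranged from 0.28 to 1.85. It was 0.02 in resident barcodes with at least 2 inflammatory genes, at 96.9 and 95.5 CPM.

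**Figure D5:**
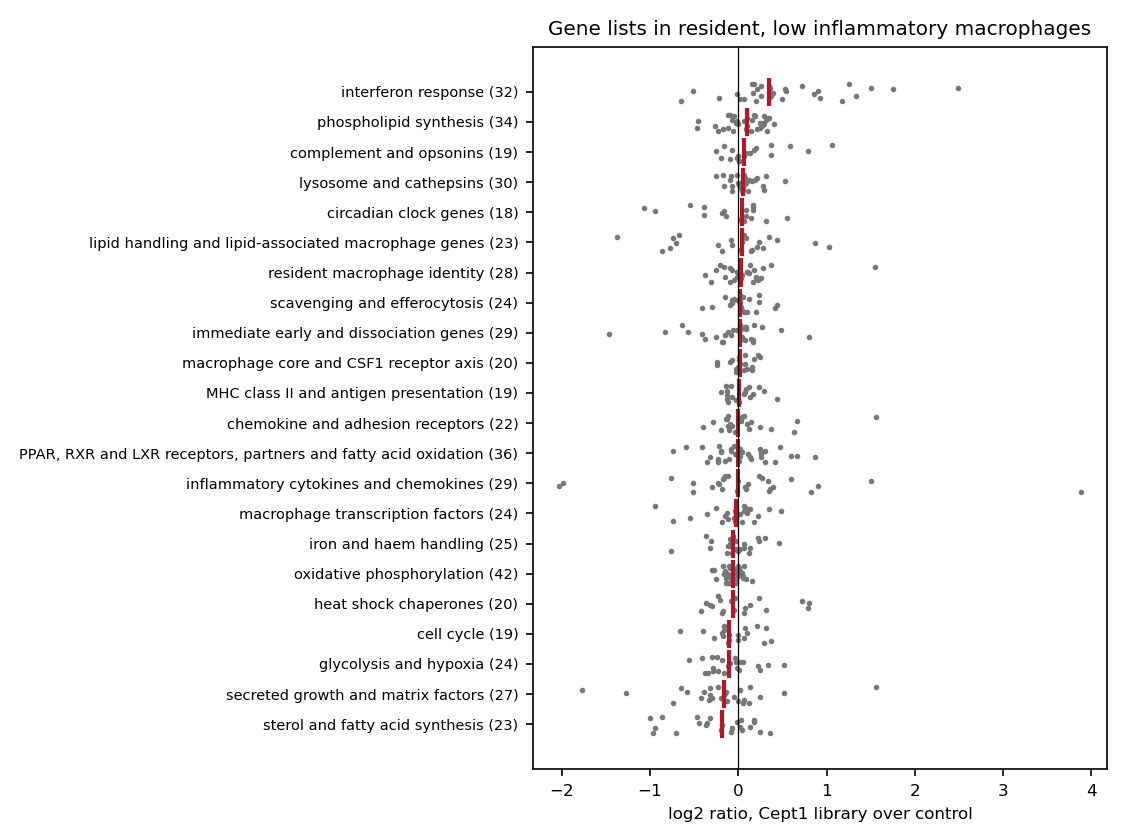
Log2 ratios between the Cept1 and control libraries in the members for the genes of 22 lists (grey points, genes with at least 50 UMIs, their number in brackets), with the median of each list as a red bar. The interferon response list has the highest median, 0.35, and the sterol and fatty acid synthesis list the lowest, -0.19; the medians of the other lists lie between -0.16 and 0.10.

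Of the remaining genes at the ends of the ranking, several are little described in macrophages. Nxpe5 was at 50.3 and 23.7 CPM (1.08; range 0.01 to 1.44), Mctp2 at 59.4 and 29.5 (1.01; range 0.77 to 1.24), Wee1, a cell cycle kinase gene, at 43.1 and 21.7 (0.99) and the lectin gene Clec4n (dectin-2) at 44.5 and 23.4 (0.93). On the lower side, Lars2, the mitochondrial leucyl-tRNA synthetase gene, was at 233 and 420 (1192 and 1239 UMIs; -0.85, range -1.08 to -0.68) and at 231 and 394 outside the macrophages (-0.77). Taf4b (-0.88), Ints6 (-0.83), Plau (-0.80) and Polg2 (-0.80) followed. Plau, the urokinase gene, was at 22.3 and 39.0 CPM.

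Myocd, the master coactivator of smooth muscle genes, was at 95.6 and 37.6 CPM in members (488 and 111 UMIs; 1.34). At 3000 UMIs it was found in 18.4% and 6.05% of members and in 20.6% and 11.2% of barcodes that were not macrophages. The intervals of the Cept1 shares overlap (15.4% to 21.7% and 19.6% to 21.6%), and those of the control shares do not (3.56% to 9.51% and 10.3% to 12.02%). In clusters 1, 2 and 3 it had 139 and 18 UMIs (2.18), 100 and 1 (5.86) and 92 and 18 (1.29). Without members holding other cells' genes its ratio was 1.94. Its summed level outside the macrophages was 145 and 91.5 (0.66), and smooth muscle markers in the members summed to 1152 CPM in the Cept1 library, below the 1486 CPM of the control library. The part of wall RNA in the Myocd level was not tested further.

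RNA of other wall cells was present in the members, and its part in the differences was tested only by leaving members out. The 10 fibroblast markers summed to 4903 and 6305 CPM, all 10 with UMIs in both libraries, the 7 smooth muscle markers to 1152 and 1486, the 8 endothelial markers to 192 and 324 and the 6 lymphatic markers to 172 and 253. All 4 sums were higher in control members. Scrublet called 81 Cept1 members (12.1%) and 23 control members (6.42%) doublets, against 4.77% and 2.10% of all kept barcodes. Neutrophil markers summed to 367 and 354 with Ly6g at 0, dendritic cell markers to 160 and 163, monocyte markers to 125 and 103, platelet markers to 75.8 and 57.0, Schwann markers to 57.0 and 70.2 and adipocyte markers to 22.9 and 21.03. T or NK, B, mast and mesothelial markers each summed to under 15 CPM, with Cd3e and Cd79a at 0 by the rule.

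Endothelial and matrix genes among the lower ones depended on few members. Flt1, a VEGF receptor gene, was at 19.001 and 62.7 CPM (-1.72), with 40.0% of its control UMIs in 1 member, and 0.55 when members holding at least 3 of 12 genes of other cells were left out. Kdr (-1.05), Cdh5 (-0.92) and Gpihbp1 (-0.90) behaved alike: they were -0.33, -0.23 and 0.08 without the richest member of each library. With Scrublet doublets removed the 4 endothelial genes stood lower still, Flt1 at -3.34, Kdr at -2.28, Cdh5 at -2.33 and Gpihbp1 at -2.14. That setting used the threshold of the Cept1 library in both and removed 12.1% of Cept1 but 6.42% of control members. The part of this unequal removal was not tested. Col1a1 was at 595 and 1311 (-1.14). Fn1, fibronectin, which macrophages also make, was at 194 and 470 (-1.27), and 0.53 without members holding other cells' genes; Thbs1 was at 12.1 and 41.4 (-1.77), with 67.2% of its control UMIs in 1 member. The list of 27 secreted growth and matrix factors had a median of -0.16 (9 higher, 18 lower), with intervals above 0 for 2 and below for 10. The median was below 0 in each setting. By contrast, without members holding other cells' genes Ccl8 was at 1.57, Rsad2 at 3.10, C4b at 0.66, Plin2 at 0.75 and Dbp at -1.26. These 5 genes kept their direction in that setting, and Flt1, Kdr and Fn1 did not. Leaving members out does not remove other cells' RNA from the members that stay, and its part in the 5 ratios was not tested.

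Lyz1 was at 65.4 and 201 CPM (-1.62), with 35.9% and 48.1% of its UMIs in 1 member of each library. It is a near-identical copy of Lyz2, the macrophage lysozyme gene, and reads may be split between the pair; Lyz2 was at 6148 and 7263 (-0.24). By cluster its direction changed, with 15 and 529 UMIs in cluster 1 (-5.91), 230 and 16 in cluster 2 (3.06) and 77 and 24 in cluster 3 (0.61). Without the richest members the ratio of Lyz1 was -1.33, and among members with no inflammatory gene 0.03.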

How the data were processed

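Droplet single-cell RNA libraries (10x 3' v3) of whole aorta were deposited as 2 count matrices. Counts are UMIs per gene and barcode, deposited as raw whole numbers; per the file headers Cell Ranger 7.2.0 made them, and mm10, Seurat and Cell Ranger are named in the submitters' processing notes. Of 32285 gene identifiers 32158 were found in GENCODE vM21.

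Barcodes holding 500 genes or more and a mitochondrial share of 10% or less were kept, and members were chosen by the gene rule given in the report. UMIs were summed over members per library and scaled to 1000000. Ratios have 95% exact conditional binomial intervals, shares exact Clopper-Pearson intervals; both cover counting error alone. No test was run, each group being 1 library. Genes with at least 200 UMIs were counted at 2-fold, list genes at 50 UMIs. Each group's scaling was compared with edgeR 4.0.16 factors. Doublets were scored with Scrublet (scanpy 1.11.5) with an expected rate of 8%; the threshold found in the Cept1 library, 0.237, was used in both, since the automatic one in the control library was 0.702. Members were clustered with Leiden (leidenalg 0.10.2, resolution 0.5, 1000 variable genes, 20 components, 15 neighbours). For shares at matched depth, barcodes were thinned to 3000 UMIs. The steps were tested on simulated data.

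The genes named are those of the rule and the markers, the 12 highest and 12 lowest ratios among genes with at least 200 UMIs, leaving out mitochondrial, ribosomal, haemoglobin, receptor segment and unnamed genes and genes below 0.5 of their level in other cells, 4 per list by size of the ratio, the 12 highest and 6 lowest against barcodes with few resident genes, and Cept1, Vegfa, Ppara and Gt(ROSA)26Sor. Further list genes were named for their role after their values were seen. The members and lists were chosen with earlier results of these data known. Of the alternatives, 16 were planned and 3 were chosen after seeing the data. Some list genes are counted in the lists and are not reported here by name.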

Additional observations from a re-analysis of the deposited data

How the results depend on the processing

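No paired analysis was possible because each group holds 1 library. The median log2 ratio of all genes was -0.00768 without scaling factors, -0.000924 with TMM and 0.00104 with RLE factors. In each setting the member share of kept barcodes was higher in the Cept1 library. Cept1 and control shares were 5.41% and 3.54% with at least 4 resident genes, 6.49% and 4.58% with at least 2, 14.998% and 8.90% without a limit on inflammatory genes, 2.42% and 1.95% with none of them detected, 8.99% and 5.77% with the rule applied at 3000 UMIs, 3.84% and 2.37% without members holding other cells' genes, and 3.72% and 3.00% without members holding haemoglobin. The control share was 3.68% with the loose filter (200 genes, 20% mitochondrial), and the Cept1 share 5.55% without Scrublet doublets.

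The 9 higher and 20 lower genes became 20 and 12 with the strict filter (1000 genes, 5% mitochondrial), 17 and 37 with at least 2 resident genes, 38 and 38 without the inflammatory limit, 33 and 32 with the rule at 3000 UMIs, 27 and 32 with equal weights for the clusters, 1 and 9 with members thinned to 3000 UMIs, 70 and 102 with a minimum of 50 UMIs, 144 and 298 with none, and 74 and 110 at a log2 ratio of 0.58. Lower genes alone became 33 with the loose filter, 99 without Scrublet doublets, 8 with no inflammatory gene detected and 4 without members holding other cells' genes.

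With no inflammatory gene detected the log2 ratio of Lyz1 was 0.0323 and of Kdr 0.81. Without members holding other cells' genes Flt1 was at 0.55, Kdr at 1.09 and Fn1 at 0.53. Kdr was at 0.54 without members holding haemoglobin and at 1.17 with equal weights for the clusters. The cause was not tested. The haemoglobin, equal weight and richest member settings were chosen after seeing the data. Depth limits genes under about 50 UMIs, and 1 library per group limits every comparison.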
